A study of Homo sapiens with 2 samples.

Results

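The genes described here encode the nuclear complex that the Notch intracellular domain forms on DNA and the machinery that removes this domain again. There are 10 of them among the 19198 genes with values. They were chosen by name for their role and not by a measured value, but with earlier results of these data known. They are RBPJ, its coactivators MAML1, MAML2, MAML3 and EP300, its corepressor SPEN, the CDK8, CCNC and MED12 genes of the CDK8 module, and FBXW7. All 10 were found in both libraries.

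Notch receptors are cleaved when they meet a ligand, and the freed intracellular domain (NICD) enters the nucleus, where it binds the DNA-binding protein RBPJ in place of corepressors such as SPEN. A mastermind-like protein (MAML) joins RBPJ and NICD in a ternary complex, which brings in the histone acetyltransferase p300, the product of EP300. The same complex attracts cyclin C and CDK8, which phosphorylate NICD in its C-terminal PEST region, after which FBXW7, the substrate receptor of an SCF ubiquitin ligase, binds the phosphorylated stretch and NICD is degraded.

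Expression was measured by sequencing polyA RNA from cells labelled A549, an established line of non-small cell lung cancer. By their labels, A549-NICD1 cells overexpressed NICD1, the intracellular part of human NOTCH1, and A549-Vector cells were the vector control. The study's methods describe NICD1 in a lentiviral pSin-EF2 vector, and stable lines made by viral infection and antibiotic selection. They do not say which construct or delivery made the sequenced cells. No further treatment is named in the labels. Since there was 1 library per condition, differences between the libraries have no replicate check, and no p-value is given. The question asked of the members was whether the cells with NICD1 carried other transcript levels of the proteins that NICD1 works with and is removed by.

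Values are FPKM, that is, reads per unit of gene length and of sequencing depth, as the authors deposited them. Depths of 48528434 reads for A549-NICD1 and 48602848 reads for A549-Vector, and whole reads per gene, were recovered from steps in these values. The log2 fold change (A549-NICD1 over A549-Vector) adds 0.5 to the reads and scales the libraries so that a trimmed mean of their log ratios is 0, and its 95% Clopper-Pearson interval covers counting error only. Genes were compared where either library held at least 10 reads, which left 15368 genes, including all 10 members. NOTCH1 stood at 2865 FPKM in A549-NICD1 against 5.40 in A549-Vector, in the direction its labels give.

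The cell line label was compared with marker genes, and many of the genes listed for A549 did not match it. Of 16 genes listed for A549, 9 stood under 1 FPKM in A549-NICD1 as well as A549-Vector, 4 of which (KRT7, KRT19, FGA and FGB) were listed at 0. The summed level of all 16 was 353.6 FPKM in A549-NICD1 and 208.4 in A549-Vector, most of it from KRT8 and KRT18. Past 1.5-fold stood KRT8 (176 against 85.95 FPKM) and KRT18 (130 against 73.1) on the higher side, and AKR1C1 (0.553 against 1.15), AKR1C2 (0.158 against 0.258) and ALDH1A1 (0.165 against 0.269) on the lower. AKR1C2 rests on 11 and 18 reads and ALDH1A1 on 19 and 31, and both intervals held 0. All 7 genes listed for HEK293, a human embryonic kidney line, were at 1 FPKM or more in both. CDKN2A was highest at 138 and 139 FPKM, and PAX2 at 1.77 against 3.02 FPKM was the gene past 1.5-fold. Of the 15368 genes with at least 10 reads in either library, 12058 were also at 1 FPKM or more in both, and 2919 were under 1 FPKM in both. Presence of the HEK293 genes at that level is therefore common among genes in general. Some of the A549 genes had too few reads to be among the 15368. The HEK293 genes summed to 231.5 and 241.9 FPKM. Both marker lists were written with earlier results of these data known, so these counts are not an independent check of the label. The cells are therefore called by their labels here, and what part the markers have in the members' values was not tested.

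The NOTCH1 sequence that the turnover machinery acts on is shown because CDK8, CCNC and FBXW7 meet the receptor there. This stretch of the PEST region lies in exon 34 of 34 of NOTCH1, on the minus strand of chr9:136496170-136496235 (GRCh38, GENCODE release 29), and spans codons 2502 to 2523 of 2555. It is reference sequence and was not read from the libraries. Capitals mark, in order, the threonine codon 2511 and the serine codons 2513 and 2516. They hold phosphorylated residues known from FBXW7 binding and from kinases of NICD. The study's residue numbers for this threonine and these serines run slightly higher than the codon numbers here.

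NOTCH1 PEST stretch: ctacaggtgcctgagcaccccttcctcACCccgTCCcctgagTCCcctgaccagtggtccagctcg

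None of the 10 members was past 1.5-fold in either direction, where 13.8% of all 15368 genes compared were, 7.63% on the higher and 6.19% on the lower side. In A549-NICD1 the coactivator MAML3 stood lowest against the vector line, at a log2 fold change of -0.57, and the kinase CDK8 highest, at 0.18. The median of the members was -0.12, beside -0.00 for all genes compared, whose middle 50% ran from -0.17 to 0.15 and whose middle 95% ran from -0.95 to 1.53. By counting error alone, the interval lay wholly above 0 for 2 members (MAML1 and CDK8) and wholly below 0 for 6 (RBPJ, MAML2, MAML3, EP300, SPEN and MED12), and it held 0 for CCNC and FBXW7. With libraries scaled by total reads, the interval of MAML1 (-0.03 to 0.07) held 0 too. Of all genes compared, 53.6% had an interval wholly on one side of 0, 26.5% above it and 27.1% below. A filter of at least 1000 reads summed over the libraries, chosen after seeing the data, left 10360 genes, including all 10 members. Of these genes, 60.7% had an interval wholly on one side of 0 (30.1% above and 30.6% below) and 2.52% were past 1.5-fold. Their log2 fold changes had a narrower spread, with a middle 50% from -0.12 to 0.11 and a middle 95% from -0.48 to 0.43. MAML3 lay below that middle 95%. RBPJ, MAML2, SPEN and MED12 lay below that middle 50%, CDK8 lay above it, and the other members were inside it. In bulk RNA, fewer cells with a transcript and less of it per cell cannot be told apart.

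**Figure D1:**
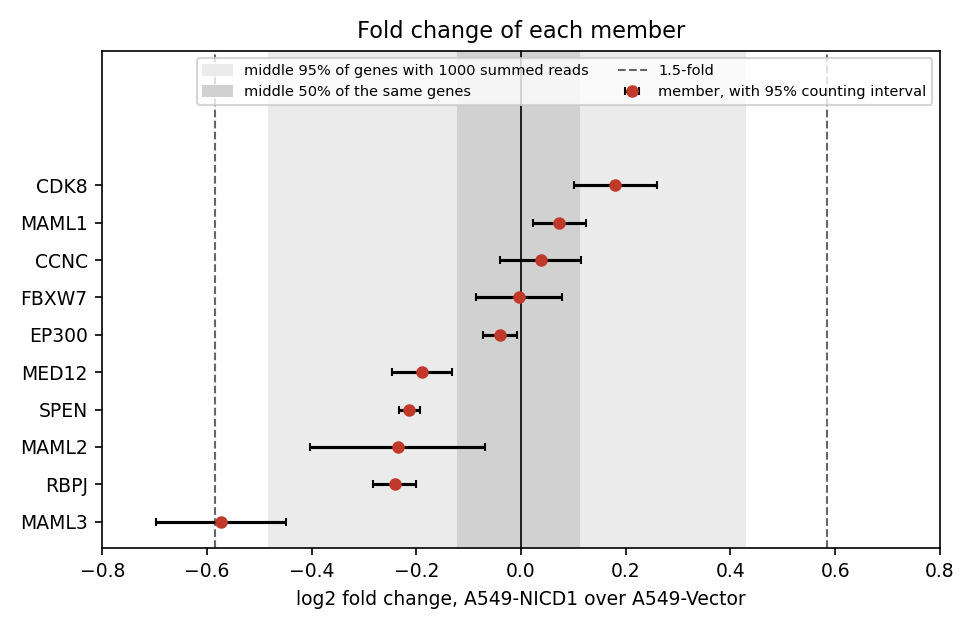
The log2 fold change of each member (x axis, A549-NICD1 over A549-Vector) with its 95% counting interval, on grey bands for the middle 50% and 95% of the genes with at least 1000 reads summed. All 10 points lie between the dashed 1.5-fold lines, with MAML3 at -0.57 nearest to one and outside the wider band.

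The members spanned a wide range of levels in both libraries. In A549-Vector they ran, from high to low, SPEN, CCNC, RBPJ, EP300, MAML1, FBXW7, CDK8, MED12, MAML3 and MAML2, from 72.9 to 1.90 FPKM. FBXW7 and CDK8 did not differ beyond counting error there, with a ratio of 1.01 (interval 0.955 to 1.07). CDK8 and MED12 were on the edge of counting error, with a ratio of 1.05 (interval 1.0 to 1.10). In A549-NICD1 the order was SPEN, CCNC, EP300, RBPJ, MAML1, CDK8, FBXW7, MED12, MAML3 and MAML2, from 60.6 to 1.55 FPKM, and every pair of neighbours differed beyond counting error. The orders differ at 2 places, where EP300 stood above RBPJ and CDK8 above FBXW7. Both libraries held a gap below MED12, which stood 5.29 times above MAML3 in A549-NICD1 and 4.06 times above it in A549-Vector. Ratios between genes also depend on the length each was divided by, which the intervals leave out. For FBXW7 the length recovered was 3046 bases, and its longest coding reference transcript has 5653. Its place beside CDK8 and MED12 is therefore uncertain beyond counting error.

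**Figure D2:**
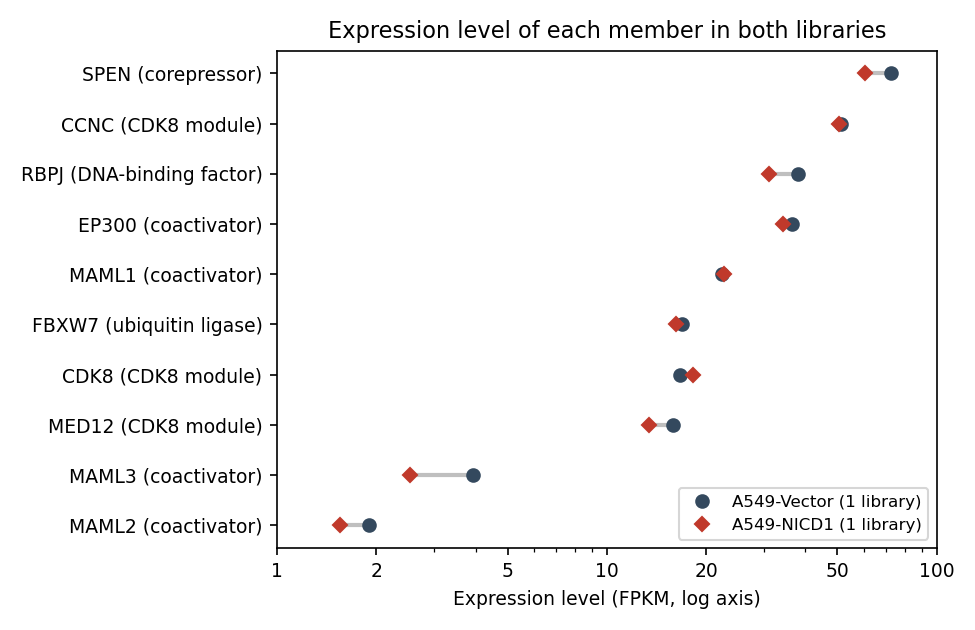
Expression level of the 10 members in FPKM on a log axis, with a circle for the A549-Vector library and a diamond for the A549-NICD1 library. SPEN is highest (72.9 and 60.6 FPKM), MAML2 and MAML3 lie under 4 FPKM in both, and the symbols of CCNC, EP300, MAML1 and FBXW7 nearly overlap.

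RBPJ, the DNA-binding protein through which all canonical Notch signals pass, stood at 30.9 FPKM in A549-NICD1 and 38.0 in A549-Vector. These values rest on 8788 and 10803 reads, and the log2 fold change was -0.24 (interval -0.28 to -0.20). Of all genes compared, 81.6% had a higher log2 fold change than RBPJ. The gene lies at chr4:26163455-26435131 on the plus strand (GRCh38, GENCODE release 29, as for all genes below). RBPJ remained among the more abundant transcripts, at rank 2738 of 19198 with NICD1 and rank 2200 with the vector.

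One of the 5 RBPJ promoter windows of RefSeq (GRCh38.p14), each reaching from 250 bases before to 50 after a start, holds the letters that RBPJ itself recognises. The 250 bases before that start, chr4:26319496-26319745 on the plus strand, are shown because they place this motif next to a member's own start. Capitals mark the core TGGGAA or its reverse complement TTCCCA, 115 and 72 bases before the start.

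RBPJ upstream window: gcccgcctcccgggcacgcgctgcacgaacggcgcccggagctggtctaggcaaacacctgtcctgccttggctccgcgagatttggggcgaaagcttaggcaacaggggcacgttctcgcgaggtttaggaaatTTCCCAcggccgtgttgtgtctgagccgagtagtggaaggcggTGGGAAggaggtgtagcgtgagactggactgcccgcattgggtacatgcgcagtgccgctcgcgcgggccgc

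All 10 members matched the promoter table, with 18 windows of 300 bases among them. TGGGAA, searched on both strands, was in 3 of these windows (16.7%), against 24.0% of all 35116 windows. Besides RBPJ these belonged to SPEN, with a match 2 bases after the start, and MED12, with one 242 bases before it. The longer form CGTGGGAA, which contains the core, was in 0.826% of all windows and in 1 window of the members, where it is the RBPJ match 115 bases before the start. These matches are letters in a window, and binding was not measured in these data.

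Proteins that hold RBPJ or stand in for it gave mixed values. The list of 5 had a median log2 fold change of 0.11, with 2 intervals above 0 and 1 below. L3MBTL3, which binds RBPJ in competition with NICD, stood at 7.03 FPKM in A549-NICD1 and 5.36 in A549-Vector, a log2 fold change of 0.45 (interval 0.33 to 0.56). RITA1, which carries RBPJ out of the nucleus, stood at 35.6 and 34.2 FPKM. FHL1, whose shorter isoform binds RBPJ, was the highest of the list, at 78.6 and 92.4 FPKM. The paralog RBPJL had 4 reads with NICD1 and 12 with the vector. It was past 1.5-fold on the lower side, with a log2 fold change of -1.42, but its interval of -3.62 to 0.19 held 0.

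The MAML genes encode the scaffold of the ternary complex, and MAML1 was the main one in both libraries. MAML1 (chr5:179732850-179777286, plus strand) stood at 22.7 FPKM in A549-NICD1 and 22.4 in A549-Vector, from 6307 and 6232 reads. Its log2 fold change was 0.07 (interval 0.02 to 0.12), which is inside the middle 50% of all genes. MAML1 transcripts were thus at nearly the same level in both libraries.

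MAML3, on the minus strand at chr4:139716753-140154184, was at 2.54 FPKM with NICD1 and at 3.92 with the vector. Its 874 and 1352 reads gave a log2 fold change of -0.57 (interval -0.70 to -0.45), or 0.672 times the vector line's level, and 93.6% of all genes had a higher value. MAML3 was the member nearest to 1.5-fold, and with libraries scaled by total reads it was past it. MAML2 (chr11:95976598-96343180, minus strand) was the lowest member by level, at 1.55 and 1.90 FPKM from 536 and 656 reads. Its log2 fold change was -0.24 (interval -0.40 to -0.07).

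The balance among the MAML genes can be read without any scaling between the libraries. MAML1 made up 84.7% of their summed FPKM in A549-NICD1 and 79.4% in A549-Vector, MAML3 9.46% and 13.9%, and MAML2 5.80% and 6.73%. The MAML1 to MAML3 ratio was 8.95 in A549-NICD1 and 5.72 in A549-Vector, a log2 difference of 0.65 (exact interval 0.51 to 0.78). The MAML1 to MAML2 ratio was 14.6 and 11.8, a log2 difference of 0.31 (interval 0.13 to 0.48). The share of MAML1 was thus larger in the library with NICD1, by more than counting error, though how often other sets of genes differ as much was not computed. Annotated exons of other genes on the opposite strand cover 8.97% of the exon bases of MAML2 and 3.59% of those of MAML3, so reads from both strands may be mixed there if counting ignored strand. The study describes its sequencing as strand-specific, the kit in the labels is named without a strand, and the setting used in counting is not given in the sources used here.

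**Figure D3:**
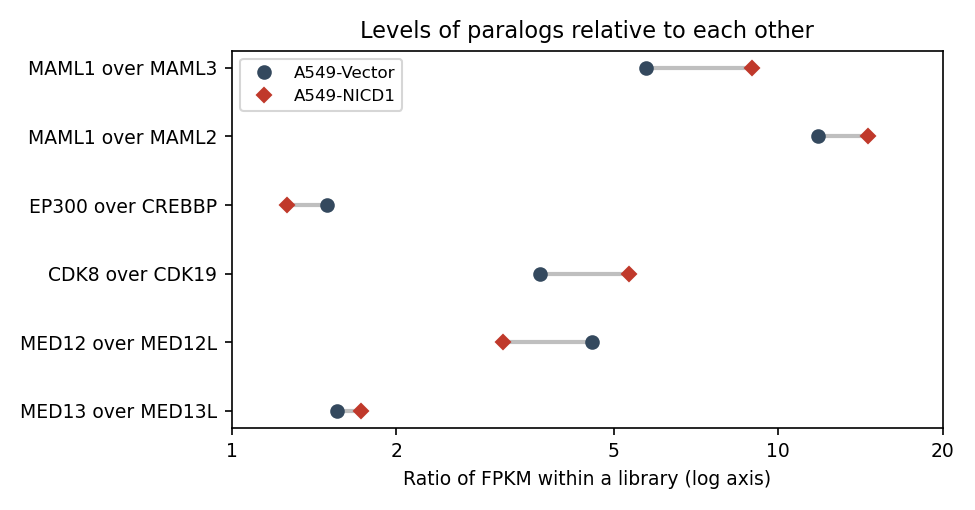
Ratio of the FPKM of 2 paralogs within each library on a log axis, with a circle for A549-Vector and a diamond for A549-NICD1. The ratios of MAML1 to MAML3 (5.72 and 8.95) and of CDK8 to CDK19 (3.67 and 5.32) are higher in A549-NICD1, and that of MED12 to MED12L (4.57 and 3.14) is lower.

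EP300 encodes p300, which acetylates histones at genes bound by the complex and lies at chr22:41091786-41180079 on the plus strand. It stood at 34.2 FPKM in A549-NICD1 and 36.5 in A549-Vector, from 14547 and 15556 reads. The log2 fold change of -0.04 (interval -0.07 to -0.01) is close to 0, and 57.1% of all genes had a higher one. Its paralog CREBBP, which encodes the acetyltransferase CBP, stood at 27.1 and 24.5 FPKM, which is a log2 fold change of 0.20 (interval 0.15 to 0.25). The ratio of EP300 to CREBBP was therefore lower with NICD1, at 1.26 against 1.49 (log2 difference -0.24, interval -0.30 to -0.18). The 5 other coactivators, CREBBP among them, had a median of 0.10 with no gene past 1.5-fold, 4 intervals above 0 and 1 below. The highest of these was KAT2A at 54.7 and 53.0 FPKM, and the lowest, with the interval below 0, was KAT2B at 5.36 and 6.48 FPKM.

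SPEN, the scaffold that links RBPJ to histone deacetylase complexes when NICD is absent, was the most abundant member in both libraries. The gene (chr1:15847864-15940460, plus strand) had 35939 reads with NICD1 and 43320 with the vector, or 60.6 and 72.9 FPKM. Its log2 fold change of -0.21 (interval -0.23 to -0.19) was close to that of RBPJ. The ratio of RBPJ to SPEN was 0.511 in A549-NICD1 and 0.521 in A549-Vector, and the log2 difference of -0.03 (interval -0.07 to 0.02) was within counting error. The ratio of RBPJ to its coactivator MAML1, by contrast, was 1.36 against 1.70, a log2 difference of -0.32 (interval -0.38 to -0.25).

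The corepressors that work beside SPEN showed small differences in both directions. Of 15 such genes none was past 1.5-fold, 8 had intervals below 0 and 2 above, and the median was -0.07. NCOR1, a corepressor that recruits HDAC3, was the highest in A549-Vector, at 88.6 FPKM against 76.45 in A549-NICD1 (log2 fold change -0.16). SAP30, a subunit of the SIN3 deacetylase complex, was the lowest there, at 8.85 against 11.4 FPKM, with the highest log2 fold change of the list, 0.42 (interval 0.24 to 0.59).

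The CDK8 module is a detachable part of Mediator, in which CDK8 is the kinase, cyclin C its activating partner and MED12 the subunit that activates the pair. CDK8 (chr13:26254104-26405238, plus strand) stood at 18.2 FPKM in A549-NICD1 and 16.7 in A549-Vector, from 2712 and 2489 reads. The log2 fold change was 0.18 (interval 0.10 to 0.26), and 21.9% of all genes had a higher one. CCNC, the cyclin C gene at chr6:99542380-99568973 on the minus strand, stood at 50.6 and 51.1 FPKM. Its log2 fold change of 0.04 (interval -0.04 to 0.12) was within counting error. Exons of an opposite-strand gene cover 9.16% of the exon bases of CCNC.

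MED12 stood lower where CDK8 stood higher. At chrX:71118556-71142454 on the plus strand, it had 4540 reads with NICD1 and 5384 with the vector, or 13.4 and 15.9 FPKM, and a log2 fold change of -0.19 (interval -0.25 to -0.13). Within a library the kinase gene was 1.36 times as abundant as MED12 with NICD1 and 1.05 times with the vector, a log2 difference of 0.37 (interval 0.27 to 0.47). Cyclin C transcripts exceeded CDK8 transcripts 2.78 times in A549-NICD1 and 3.07 times in A549-Vector, a log2 difference of -0.14 (interval -0.25 to -0.03). The transcripts of these partners were thus not in a fixed proportion across the libraries, beyond counting error. How often other pairs of genes differ as much was not computed. Intervals on one side of 0 were common, at 60.7% of genes with at least 1000 reads summed, so this need not be particular to the module.

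CDK19 and MED12L are paralogs that can take the place of CDK8 and MED12 in the module, and both stood opposite to their partner. CDK19 stood at 3.42 FPKM in A549-NICD1 and 4.55 in A549-Vector, a log2 fold change of -0.36 (interval -0.48 to -0.24). CDK8 was the main kinase gene in both libraries, 5.32 times above CDK19 with NICD1 and 3.67 times with the vector (log2 difference 0.54, interval 0.39 to 0.68). MED12L stood at 4.28 and 3.48 FPKM, which is a log2 fold change of 0.35 (interval 0.22 to 0.48). The ratio of MED12 to MED12L was 3.14 in A549-NICD1 and 4.57 in A549-Vector (log2 difference -0.54, interval -0.68 to -0.40).

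The genes that join the module to Mediator differed less. MED13, which anchors the module, stood at 22.9 FPKM in A549-NICD1 and 23.2 in A549-Vector, and its paralog MED13L at 13.3 and 14.9. Their ratio was 1.72 and 1.56, a log2 difference of 0.15 (interval 0.07 to 0.23). The 4 other module genes had a median of -0.04 and the 26 genes of core Mediator one of 0.04, which turned below 0 with scaling by total reads, and no gene of either list was past 1.5-fold. In core Mediator 9 intervals were above 0 and 6 below, and the log2 fold changes ran from -0.37 for MED31 to 0.40 for MED27. MED24 was its highest gene in A549-Vector (54.0 FPKM, and 55.95 in A549-NICD1) and MED31 its lowest (3.11 and 2.31).

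FBXW7, the substrate receptor that recognises phosphorylated NICD, gave the value closest to 0. It stood at 16.2 FPKM in A549-NICD1 and 16.9 in A549-Vector, from 2393 and 2495 reads (chr4:152320544-152536063, minus strand). The log2 fold change was -0.00 (interval -0.09 to 0.08), and 50.3% of all genes had a higher one. The ratio of CDK8 to FBXW7, the kinase to the ligase receptor that acts after it, was 1.12 with NICD1 and 0.990 with the vector, a log2 difference of 0.18 (interval 0.07 to 0.30). These values are 1 total for the gene, and its isoforms were not separated. Which FBXW7 transcripts the total covers is not known, since the length recovered was 3046 bases and the longest coding reference transcript has 5653.

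The rest of the ligase and the other factors known from NICD or FBXW7 turnover were all within 1.5-fold. Of 13 such genes 5 had intervals above 0 and 4 below, and the median was 0.02, or below 0 with scaling by total reads. SKP1, the adaptor that binds the F-box of FBXW7, stood at 95.4 FPKM in A549-NICD1 and 84.99 in A549-Vector (log2 fold change 0.22). CUL1, the scaffold of the ligase, stood at 43.9 and 40.2 FPKM (0.18), and RBX1, its RING subunit, at 79.3 and 82.0 (0.00). The kinase gene MAP3K1 was the lowest in A549-Vector, at 5.20 FPKM there and 5.08 with NICD1.

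The proportion between NOTCH1 transcripts and each member differed far more between the libraries than the members did. In A549-Vector the level of NOTCH1 was below that of 8 members, from 0.0740 times SPEN to 0.340 times MED12, and above that of MAML3 (1.38 times) and MAML2 (2.84 times). In A549-NICD1 it exceeded every member, from 47.3 times SPEN to 1845 times MAML2. RBPJ, which binds NICD directly, was exceeded 92.6 times with NICD1 and stood above NOTCH1 with the vector, where the ratio was 0.142. MAML1, the main scaffold gene, was exceeded 126 times, against a ratio of 0.241 with the vector.

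The turnover genes were set against NOTCH1 and against RFC4, the replication factor gene that the study follows. NOTCH1 exceeded CDK8 157 times, CCNC 56.6 times and FBXW7 177 times in A549-NICD1, where the ratios in A549-Vector were 0.324, 0.106 and 0.320. RFC4 itself was at 4075 FPKM in A549-NICD1, rank 1 by level there, and at 39.5 FPKM in A549-Vector. What its transcripts came from was not tested. RFC4 stood at 224 times CDK8 and 252 times FBXW7 in A549-NICD1, and at 2.37 and 2.34 times in A549-Vector. Almost all of this difference lies in NOTCH1 and RFC4, since CDK8 and FBXW7 differed by 0.18 and -0.00 on the log2 scale. The NOTCH1 level is per 9306 bases of gene length, the full gene, and the totals do not show which part of the gene the reads came from. Transcripts were measured, so the ratios are not ratios of protein.

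**Figure D4:**
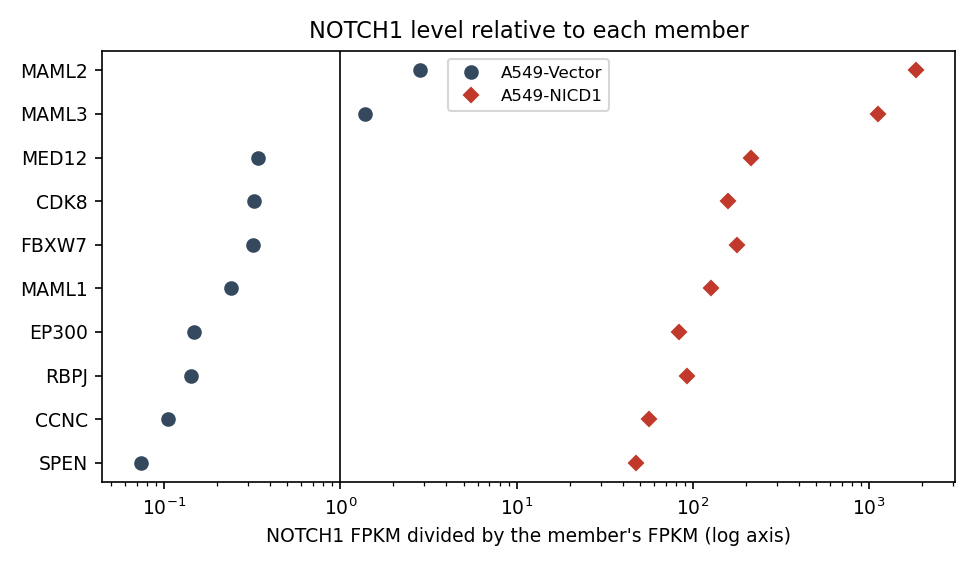
NOTCH1 FPKM divided by the FPKM of each member on a log axis, with a circle for A549-Vector, a diamond for A549-NICD1 and a line at a ratio of 1. Circles lie between 0.0740 (SPEN) and 2.84 (MAML2), and diamonds between 47.3 (SPEN) and 1845 (MAML2), in nearly the same order.

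Length moved with the values and is given beside them. Among genes with at least 1000 reads summed, split into 4 equal parts by the length recovered with the reads, the medians from shortest to longest were 0.03, 0.02, -0.01 and -0.05. The longest of these held RBPJ, MAML1, MAML2, MAML3, EP300, SPEN and MED12, the second held CDK8 and FBXW7, and CCNC lay in the shortest. By the length of GENCODE transcripts instead, FBXW7 lay in the longest part and CCNC in the second. Its part in the members' median of -0.12 was not tested. No 100-base window of any member's reference transcript, taken every 50 bases, was found in a transcript of another gene.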

How the data were processed

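PolyA RNA was sequenced from 1 library of A549-NICD1 and 1 of A549-Vector, grouped by their labels, so no test was run. The authors deposited 1 value per gene and library, taken as FPKM from the values themselves. The submitters' processing notes name Bowtie2, HTSeq and hg38 with no versions, and the annotation is not given in the sources used here. Rows with dates for gene names (27 of 19225) were left out.

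Depths were found as those at which gene lengths came out whole (within 0.0005) for most of 7630 genes with a small whole-number ratio of reads: 65.6% did, and 32.5% at double the depth. Reads came out whole for 17176 of the 17178 genes above 0, with lengths taken from GENCODE release 29 transcripts, which matched within 2% for 50.9%. A gene's reads may be overstated by a whole-number factor, and they sum to 108% of the depth in both libraries. Intervals therefore use the fewest reads possible. They cover counting error only, because 1 library per condition leaves no spread between replicates. PCR copies of a molecule cannot be recognised without identifiers, so the intervals may be too narrow even for counting error. Fold changes used reads plus 0.5 and a trimmed mean of log ratios (30% of ratios and 5% of the expression range trimmed at each end, factor 0.963), and understate changes of low genes. Intervals of ratios within a library or of their difference are exact and conditional on the reads.

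The design kept its pseudocount of reads after the unit proved to be FPKM. Members, gene lists and markers were chosen with earlier results of these data known. Genes named were the members, NOTCH1 and RFC4 beside them, RBPJL, CREBBP, CDK19, MED12L, MED13, MED13L, SKP1, CUL1 and RBX1, the highest and lowest gene of each list in A549-Vector, and list genes past 1.5-fold. A gene that this rule names is not reported here. L3MBTL3, RITA1 and MED27 and the lists' marker genes at 0 were named after their values were seen. Alternatives covered scaling, pseudocount, filter and threshold. The recovery, fold changes and intervals were tested on simulated data. Python 3.11.15, numpy 2.4.6, pandas 2.3.3, scipy 1.17.1 and matplotlib 3.10.9 were used.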

Additional observations from a re-analysis of the deposited data

How the results depend on the processing

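No paired analysis was possible because only 1 library exists here for each condition. Scaling by total reads lowers every log2 fold change by 0.05. It gave -0.30 for RBPJ, 0.0195 for MAML1 (its interval then held 0), -0.0945 for EP300, -0.27 for SPEN and -0.12 for the median of the corepressors, turned CCNC and the medians of core Mediator and of the SCF list below 0, and put 1 member, MAML3, past 1.5-fold on the lower side where the scaling reported gave 0. Scaling by the median log ratio turned FBXW7 above 0. With a pseudocount of 1 FPKM MAML3 was at -0.44. Over all genes, 1172 were higher and 952 lower past 1.5-fold. These became 194 and 111 with a pseudocount of 1 FPKM, 687 and 349 at 2-fold, 2105 and 1485 with no filter, 295 and 384 with at least 1 FPKM in a library, and 125 and 136 with at least 1000 reads summed, a filter chosen after seeing the data. Of 135 results recomputed under an alternative, 118 stayed the same by a set rule and 17 moved, all of which are given here. Fold changes and ratios had to stay within their counting interval, and counts within 1.5 times. Medians could shift by no more than the median half-width of their genes' intervals. Ratios of NOTCH1 to members were recomputed only with 0.1 FPKM added to both genes, a change too small to test them. Depth limits the order of FBXW7, CDK8 and MED12 in A549-Vector and the precision for MAML2, which had 536 reads in A549-NICD1. With a single library per condition, the spread between cultures is unknown for every value.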
